A study of Sus scrofa with 8 samples.

Results

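Neutrophil host-defense genes of the calgranulin and cathelicidin families were sought on the arrays of pig lung, namely the calgranulins S100A8, S100A9 and S100A12 and the cathelicidins PR39, NPG4, PMAP-23 and PMAP-37. A probe counted as a member when its name matched 1 of these 7 genes, through the RefSeq accession in the array design or through the gene names of the study's tables, and when its signal was well above background on at least 1 array. Of the 7 genes, 2 had such a probe, PR39 and NPG4, among 3828 named genes with a tested probe. Each was measured by 1 probe, named through its RefSeq accession. No probe was matched to S100A8, S100A9, S100A12, PMAP-23 or PMAP-37, and these 5 genes have no value here. The calgranulins are therefore represented only by other S100 genes, and the label of the gene set holds for its cathelicidins alone. Apart from their names, probes were selected on detection alone, and detection is not reported as a result.

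Lung RNA came from female Tibetan and Duroc pigs aged 6 months, with 1 pig per array and 2 arrays per group. TH pigs were Tibetan pigs kept at 3500 m, where the breed is native, and DL pigs were Duroc pigs kept at 40 m. TL pigs were Tibetan pigs moved to 40 m and DH pigs were Duroc pigs moved to 3500 m, both at 1 month of age. The moved pigs therefore make up 1 group of each breed, and the effect of the move itself cannot be told apart from that of altitude within a breed. Each altitude difference within a breed compares native with moved animals. In the altitude effect over both breeds, each side holds 1 native and 1 moved group. Lung pieces hold airway, alveoli, vessels and the blood left in them.

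Cathelicidins are stored in neutrophil granules as inactive precursors with a conserved cathelin domain, and proteases cut them on release to give the active peptide. Pigs carry an unusually rich set of them. PR39 gives a peptide rich in proline and arginine, which enters bacteria without lysing them and is also known for effects on inflammation and on vessel growth. NPG4 encodes protegrin 4, a short peptide held by disulfide bonds that permeabilizes bacterial membranes. PMAP-23, PMAP-36 and PMAP-37 give linear myeloid antimicrobial peptides. The transcripts are made mainly in developing myeloid cells of the bone marrow. Calgranulins are calcium-binding S100 proteins that make up much of the neutrophil cytosol and act as alarm signals at AGER and TLR4 once released.

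The cathelicidins are close relatives that lie next to each other in the pig genome. In the RefSeq annotation of the Sscrofa11.1 assembly, NPG4, PR39, PMAP-23, NPG1 and PMAP-36 stand in this order, and S100A8, S100A12 and S100A9 form a second row of neighbors. The same annotation lists PMAP37 as a synonym of NPG4, and lists PR-39 as a synonym of both PR39 and PMAP-23. The NPG4 probe may thus stand for the gene also named PMAP-37. Whether a probe also caught transcripts of a relative was not tested, and each value below is that of a probe. PMAP-36, the single other cathelicidin with a tested probe, is given beside the members for comparison.

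Expression is given as the log2 of the normalized signal, so that 1 unit is a doubling, and levels are compared between arrays only for the same probe. The TL arrays were brighter than the others, with a raw median signal of 324 and 333.5 against 207.5 to 230 and with 31641 to 31723 probes well above background against 26466 to 29319, and no array had a saturated spot. Over all tested probes, both arrays of any group correlated at r of 0.9894 to 0.9956, and the TH, DL and DH groups with each other at 0.9703 to 0.977. The TL arrays stood apart, with r of 0.9298 to 0.9486 to the other groups. Surfactant genes marked the tissue as lung on all 8 arrays, with SFTPC at 18.63 to 19.05 and SFTPB at 15.16 to 15.88, and no probe was matched to SCGB1A1. TH and DL arrays shared 1 slide, and TL and DH arrays the other.

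PR39 was highest in TL lung and lowest in DH lung, and the groups did not overlap, as for 44.1% of the probes measured on every array. TL arrays read 9.51 and 9.61, TH arrays 8.50 and 8.51, DL arrays 8.43 and 8.44, and DH arrays 6.47 and 6.42. The native groups, TH and DL, thus lay next to each other, while the moved pigs took both ends of the range. Native and moved pigs also lay on different slides, so that the move and the slide cannot be told apart. The probe was well above background on all 8 arrays, though dim in DH, where the raw signal was 117 and 118.5 against a local background of 35 on both arrays. In TL lung the raw signal was 1055 and 1157.

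NPG4 kept the same top and bottom at a higher signal of its own probe. TL arrays read 13.03 and 13.06, TH arrays 12.32 and 12.33, DL arrays 12.03 and 12.07, and DH arrays 11.14 and 11.11. The order was TL, TH, DL and DH, with no overlap between neighbors. All raw signals of NPG4 lay between 1991 and 8718, far from a local background of 35 to 45.5.

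PMAP-36 read 9.55 and 9.77 on TL arrays, 8.33 and 8.42 on DL arrays, 7.50 and 7.45 on TH arrays, and 6.26 and 6.20 on DH arrays. It shared the top and the bottom with the members, but TH lay below DL. In DH it was well above background on 1 of 2 arrays, with raw signals of 108 and 107.5, so that its DH level is near the limit of detection.

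**Figure D1:**
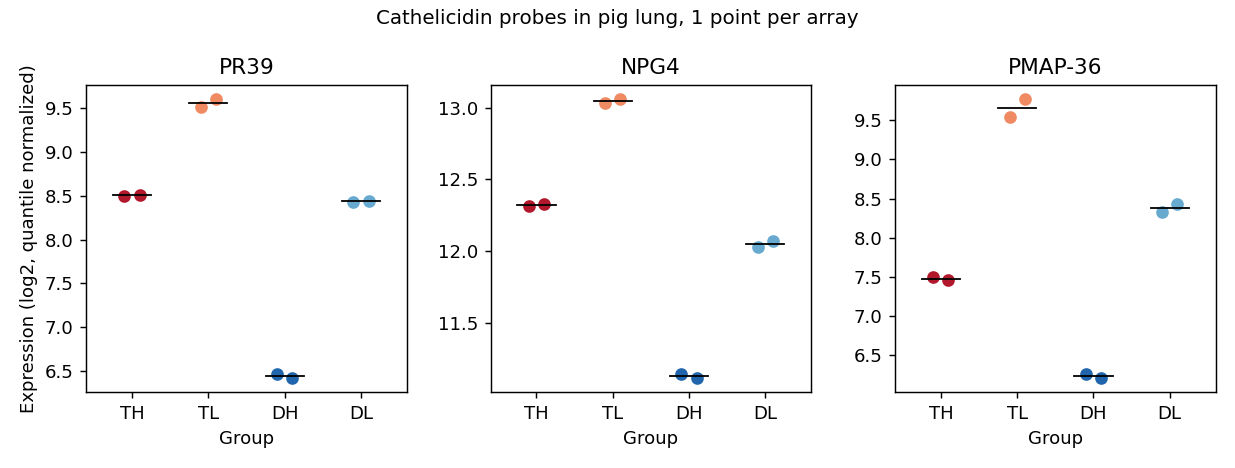
Expression of the cathelicidin probes (log2 of the normalized signal, vertical axis) in the 4 groups, with 1 point per array, 2 arrays per group and a line at each group mean; each panel has its own axis, which does not start at 0. TL is highest and DH lowest in every panel, at 9.51 and 9.61 against 6.47 and 6.42 for PR39.

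The log2 values that the authors deposited gave the same picture. For PR39 they were 9.80 and 9.92 in TL, 8.59 and 8.63 in TH, 8.65 and 8.63 in DL, and 6.43 and 6.38 in DH. In these values the TH and DL arrays of PR39 overlapped. For NPG4 they were 12.94 and 12.90 in TL, 12.23 and 12.26 in TH, 11.96 and 11.98 in DL, and 11.02 and 11.03 in DH, with no overlap.

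The first question was whether lung expression differed between the breeds, which was tested by limma on the means over both altitudes. PR39 was 3.02-fold higher in Tibetan than in Duroc pigs, a log2 difference of 1.59 (SE 0.03, adjusted p = 4.49e-06). NPG4 was 2.13-fold higher, a log2 difference of 1.09 (SE 0.03, adjusted p = 5.14e-06), and PMAP-36 was 2.40-fold higher, with 1.27 (SE 0.06, adjusted p = 2.31e-05). Both members passed the false discovery rate (FDR) of 0.0001 used throughout, which 19.5% of all 34406 probes passed for breed, 10.6% with higher values in Tibetan pigs. The median difference over all probes was -0.06. All 4 Tibetan arrays lay above all 4 Duroc arrays for both members, as for 7.2% of the probes measured on every array, whereas for PMAP-36 the TH arrays lay below the DL arrays.

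The precision behind these tests rests on 2 arrays per group. For the 41 probes spotted repeatedly, single spots on the same array differed by a median of 0.138, and single spots on both arrays of a group by 0.114. The p-values measure the differences against the spread between arrays alone. Without TL replicate 1 or TL replicate 2, the adjusted p for breed was 1.06e-04 and 1.07e-04 for PR39 and 1.08e-04 and 1.09e-04 for NPG4, just past the threshold, with differences of 1.57 to 1.62 and of 1.09 to 1.10. An offset of 50 added after correction with local background, which compresses dim probes, gave a breed difference of 0.61 for PR39 and of 0.49 for PMAP-36.

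Altitude was the second question. At high altitude, PR39 was 2.87-fold lower, with a log2 difference of -1.52 (SE 0.03, adjusted p = 7.42e-06). NPG4 was 1.77-fold lower, with -0.83 (SE 0.03, adjusted p = 1.15e-05), and PMAP-36 was 4.49-fold lower, with -2.17 (SE 0.06, adjusted p = 8.72e-06). For altitude 17.4% of all probes passed, 8.47% with lower values at high altitude, and the median over all probes was 0.0015. Both differences, higher in Tibetan pigs and lower at high altitude, were passed together by 1544 probes, or 4.49%. Without any 1 array, no probe of all those tested passed for altitude, and the adjusted p then ranged from 1.07e-04 to 1.57e-04 for PR39 and from 1.37e-04 to 1.90e-04 for NPG4, with differences of -1.55 to -1.50 and of -0.84 to -0.82. An offset of 50 with local background gave an altitude difference of -0.58 for PR39 and -0.81 for PMAP-36.

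In every comparison within a breed or within an altitude, the groups lay on different slides, so that group and slide cannot be told apart. Within Tibetan pigs, TH was lower than TL by a log2 difference of -1.05 for PR39 (SE 0.05, adjusted p = 1.27e-05) and of -0.73 for NPG4 (SE 0.04, adjusted p = 2.10e-05), where 29.5% of all probes passed. PMAP-36 differed by -2.18 (SE 0.08, adjusted p = 7.32e-06). After correction with local background and the offset, PR39 differed by -0.58 and PMAP-36 by -1.04. The call for NPG4 in Tibetan pigs was lost with signals scaled to the 75th percentile of each array, at -0.23. Without 1 array of the 8, PR39 kept the call only where a DH array was left out, and NPG4 in no case, the differences then being -1.098 to -1.001 and -0.74 to -0.71 and the highest adjusted p 2.18e-04 and 3.71e-04.

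Within Duroc pigs, DH was lower than DL, with a log2 difference of -1.99 for PR39 (SE 0.05, adjusted p = 3.10e-05), a 3.98-fold difference. NPG4 differed by -0.92 (SE 0.04, adjusted p = 6.19e-05) and PMAP-36 by -2.15 (SE 0.08, adjusted p = 5.74e-05). In this comparison 3.07% of all probes passed. Without any 1 array no probe passed at all, the differences then being -2.02 to -1.97 for PR39 and -0.95 to -0.90 for NPG4. With local background and the offset of 50, the difference in Duroc pigs was -0.58 for both PR39 and PMAP-36, and PMAP-36 no longer passed (adjusted p = 1.16e-04).

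At high altitude, TH exceeded DH by 2.07 for PR39 (SE 0.05, adjusted p = 1.02e-05), a 4.18-fold difference, and by 1.19 for NPG4 (SE 0.04, adjusted p = 2.28e-05). Here 4.42% of all probes passed. PMAP-36, with 1.25 (SE 0.08, adjusted p = 2.01e-04), did not. These calls were lost without any 1 array, with differences of 2.04 to 2.09 for PR39 and of 1.18 to 1.21 for NPG4, and PR39 was at 0.61 and PMAP-36 at 0.26 with local background and an offset of 50. PMAP-36 passed with signals scaled to the 75th percentile, at 1.77 (adjusted p = 7.96e-05).

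At low altitude, TL exceeded DL by 1.12 for PR39 (SE 0.05, adjusted p = 9.88e-06) and by 0.99 for NPG4 (SE 0.04, adjusted p = 6.71e-06), both about as large as for PMAP-36, at 1.28 (SE 0.08, adjusted p = 5.16e-05). In this comparison 29.9% of all probes passed, and calls of both members were lost without a TL or a DL array, at adjusted p of 1.09e-04 to 2.04e-04 with differences of 1.07 to 1.17 for PR39 and 1.39e-04 to 1.60e-04 with 0.97 to 1.02 for NPG4. NPG4 was at 0.50 with signals scaled to the 75th percentile, and the offset of 50 gave 0.61 for PR39 and 0.72 for PMAP-36.

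**Figure D2:**
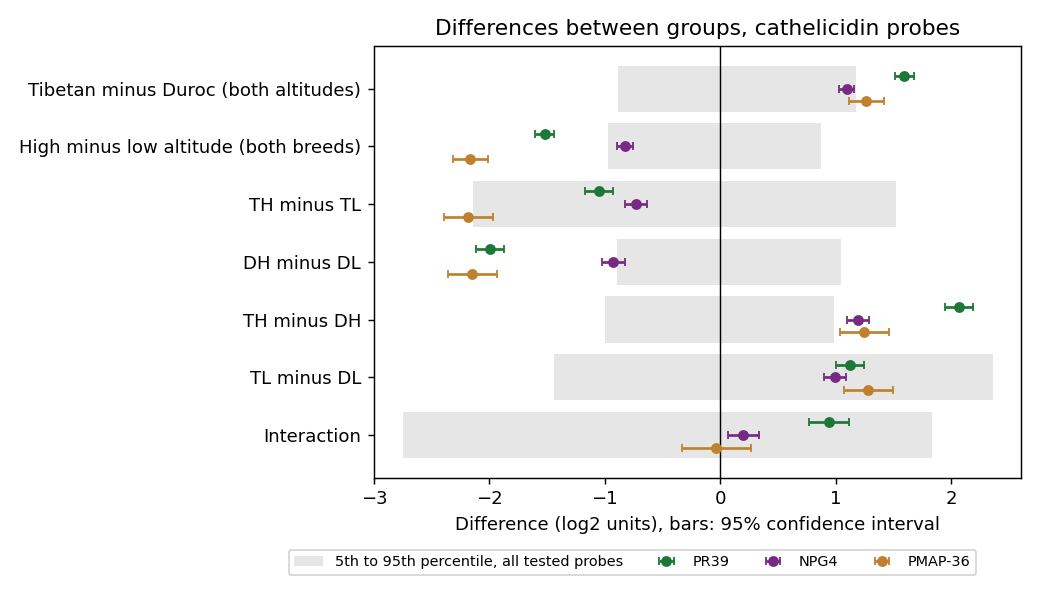
Log2 differences of the cathelicidin probes (horizontal axis) for each comparison, with points for the limma estimates and bars for their 95% confidence intervals; grey bands hold the 5th to 95th percentile of all 34406 tested probes. In Duroc pigs (DH minus DL) the difference of PR39, -1.99, lies outside a band that begins at -0.90, while in Tibetan pigs (TH minus TL) the difference of -1.05 lies inside a band that begins at -2.14.

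The groups that shared a slide differed in both breed and altitude. On the slide of TH and DL, PR39 differed by 0.07 (95% confidence interval -0.05 to 0.19, adjusted p = 0.248), so that the neighbors in the middle of its order did not differ beyond their spread. NPG4 was higher in TH by 0.27 (interval 0.17 to 0.36, adjusted p = 0.00216) and PMAP-36 was lower in TH, at -0.90 (adjusted p = 4.74e-04), neither past the threshold, which 6.47% of all probes passed. PMAP-36 did pass with the deposited values, at -1.01 (adjusted p = 8.90e-05), and with quantile-normalized processed signals, at -1.02 (adjusted p = 8.82e-05). On the slide of TL and DH, TL exceeded DH by 3.11 for PR39 (adjusted p = 2.33e-06), an 8.66-fold difference, by 1.92 for NPG4 (adjusted p = 2.46e-06) and by 3.43 for PMAP-36 (adjusted p = 3.15e-06), where 26.2% of all probes passed. With local background and the offset of 50 these differences were 1.19 for PR39, 1.76 for NPG4 and 1.30 for PMAP-36, and PMAP-36 differed by -0.33 between TH and DL.

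Whether altitude acted alike in both breeds was asked by the interaction, the difference TH minus TL less the difference DH minus DL. For PR39 it was 0.94 (SE 0.07, adjusted p = 9.45e-05), the altitude difference being smaller in Tibetan than in Duroc pigs. For NPG4 it was 0.20 (95% confidence interval 0.06 to 0.33, adjusted p = 0.0193) and for PMAP-36 -0.03 (interval -0.34 to 0.27, adjusted p = 0.816), neither past the threshold. Of all probes 21.1% passed, with a median of 0.19. This contrast also sets the native groups, TH and DL, against the moved groups, so that interaction and move cannot be told apart. The contrast between the slides is the same as this interaction, so that slide and interaction cannot be told apart, and for PR39 it was 0.98 with the deposited values (adjusted p = 1.06e-04), -0.00073 with local background and an offset of 50, and not past the threshold without any 1 array, at 0.89 to 0.99. With signals scaled to the 75th percentile the members changed places, NPG4 passing at 0.80 (adjusted p = 3.63e-05) and PR39, at 0.72 (adjusted p = 1.59e-04), not. With the offset of 50, PMAP-36 was at -0.46 (adjusted p = 9.76e-04).

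TL was the highest and DH the lowest group mean for both members, as for 2322 of the 34406 probes, or 6.75%. Across the 8 arrays, Pearson's r between PR39 and NPG4 was 0.984, and between PR39 and PMAP-36 0.938, over arrays that fall into 4 groups and share their normalization. Among 24722 probes well above background on all 8 arrays, 178 probes, or 0.72%, reached an r with PR39 of at least 0.95. The named genes outside the set with the highest r were AK7, an adenylate kinase of motile cilia, at 0.998, LOC396867 at 0.996, ADH1C, an alcohol dehydrogenase, at 0.996, MARCH6, a ubiquitin ligase of the endoplasmic reticulum, at 0.995, and WHSC1L1, a histone methyltransferase, at 0.994. AK7, ADH1C and WHSC1L1 were named through the study's tables, which in the form used here hold part of their rows. ADH1C had the widest range of these, with group means of 16.43 in TL and 10.71 in DH, and AK7 a narrow one, with 13.16 and 11.70.

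**Figure D3:**
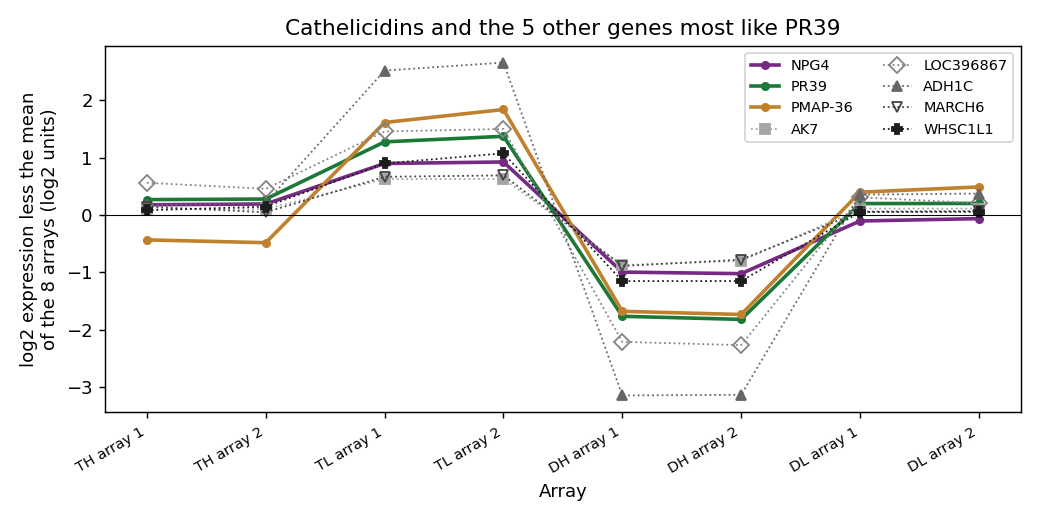
Expression on each array less the mean of the 8 arrays (log2 units, vertical axis) for PR39, NPG4 and PMAP-36 (solid lines) and for the 5 other named genes most like PR39 (dotted lines); the lines only join the points of a gene. All rise to the TL arrays and drop to the DH arrays, and PMAP-36 alone lies below 0 on the TH arrays.

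Other S100 genes stood in for the calgranulins in part. Of 16 listed S100 relatives, 4 had a tested probe, S100A6, S100A10, S100A11 and S100G, and at the probe chosen for each gene 0 passed for breed, altitude or interaction by limma, while 2, 2 and 3 genes had an unadjusted p below 0.05. S100A11 had a breed difference of -0.32 (limma adjusted p = 2.00e-04) and S100A10, the annexin A2 partner, an altitude difference of -0.55 (adjusted p = 2.29e-04). S100A10 had 3 probes, of which A_72_P293354 passed for breed at -0.77 (adjusted p = 3.66e-05) and A_72_P244152 for altitude at -0.59 (adjusted p = 5.46e-05). None of the 4 had TL highest with DH lowest, the order of PR39.

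Of 16 listed genes of other neutrophil granule proteins, 6 were tested, and 4 were higher in Tibetan pigs while 0 were lower, with a median difference of 0.62 against -0.06 for all probes. LTF, the iron-binding lactoferrin of specific granules, differed by 2.73, PGLYRP1, which binds bacterial peptidoglycan, by 1.30, MMP9, the gelatinase, by 0.70 and CHI3L1, a chitinase-like protein also made by macrophages and epithelium, by 0.54. LTF and CHI3L1 are made by airway epithelium too. CHI3L1 did not pass with signals scaled to the 75th percentile, at 0.20. For altitude 1 gene passed, PGLYRP1, and it was higher at high altitude by 2.06. No gene of this list had TL highest with DH lowest. The mean log2 level of the list was 14.68 to 14.71 in TH, 13.64 in TL, 13.34 to 13.36 in DL and 13.15 to 13.17 in DH. It was highest in TH, as were LTF, PGLYRP1, MMP9 and CHI3L1, whereas PR39 and NPG4 were highest in TL. HP and ARG1, which passed for neither breed nor altitude, were also highest in TL. HP had means of 16.18 in TL, 16.12 in DH and 15.75 in TH, and ARG1 of 13.88 in TL and 13.22 in TH. The defining granule proteases MPO, ELANE, PRTN3 and CTSG had no matched probe.

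Of 20 listed neutrophil surface and oxidase genes, 8 were tested, 3 of them named only through the study's tables, in which genes with a breed effect may be over-represented. IL1R2, the decoy receptor of interleukin 1, was higher in Tibetan pigs by 0.80 in the means over both altitudes. Its TH minus DH was 1.99 but its TL minus DL was -0.39, with an interaction of 2.38 (limma adjusted p = 5.96e-06). C5AR1, the receptor of complement C5a, was lower, at -0.48 and CYBA, a membrane subunit of the oxidase, at -0.41. For altitude NCF4, a cytosolic subunit of the oxidase, was higher at high altitude by 0.60 and the other 7 did not pass. The mean log2 level of the list was 13.58 to 13.61 in DH, 13.56 to 13.59 in DL, 13.52 to 13.53 in TH and 13.14 to 13.16 in TL, lowest in the group where PR39 and NPG4 were highest. In such pieces, fewer cells of a type and less RNA per cell cannot be told apart, and the part of neutrophil number in the cathelicidin differences was not tested.

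Of 17 listed recruitment ligands and adhesion molecules, 11 were tested, and 5 were lower at high altitude while 1 was higher, with a median of -0.53 against 0.0015 for all probes. CXCL8, a neutrophil-attracting chemokine, was higher in Tibetan pigs by 1.04 and lower at high altitude, at -1.12, and it was the only gene of this list with TL highest and DH lowest. Its group means were 12.44 in TL, 11.16 in DL, 11.08 in TH and 10.29 in DH, and its second probe gave 0.91 and -1.03. CXCL2, a further neutrophil chemokine, was higher in Tibetan pigs by 1.52 and lower at high altitude, at -0.69, with its lowest mean in DL and not in DH. IL1A at -0.83, ICAM1, an endothelial ligand of leukocyte integrins, at -0.76 and SELP, the P-selectin of endothelium and platelets, at -0.67 were lower at high altitude, and TNF was higher by 0.86. IL18 was higher in Tibetan pigs by 0.66. PTGS2 did not pass at its chosen probe, at -0.53 for altitude (limma adjusted p = 5.92e-04). Its second probe, named through the study's tables, passed at 1.55 for breed and -1.06 for altitude. That probe had a mean of 13.49 in TL against 9.82 to 10.89 in the other groups. With signals scaled to the 75th percentile, ICAM1, at -0.29, and SELP, at -0.40, did not pass.

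Receptors and partners of calgranulins were measured for 6 of 7 genes. CD14, the lipopolysaccharide co-receptor, was lower in Tibetan pigs, at -0.62 and higher at high altitude by 0.62, opposite to PR39 and NPG4 in both. MYD88, the adaptor of Toll-like receptors, was lower in Tibetan pigs, at -0.60, by 1 probe, while its second probe, named through the study's tables, did not pass, at -0.24 (adjusted p = 0.00296). CD36, a fatty acid and scavenger receptor, was lower at high altitude, at -0.53, its 5 probes differing in what passed. At the 75th percentile MYD88, at -0.44, and CD36, at -0.16, did not pass. AGER, at -0.32 for breed and -0.22 for altitude, and TLR4, at -0.22 and 0.23, did not pass. Of 6 granulocyte transcription factors, CEBPA and SPI1 were tested, and 0 of 2 passed for breed, altitude or interaction, against 1, 2 and 2 at an unadjusted p below 0.05, with breed values of -0.12 (limma adjusted p = 0.161) and -0.56 (adjusted p = 2.86e-04).

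**Figure D4:**
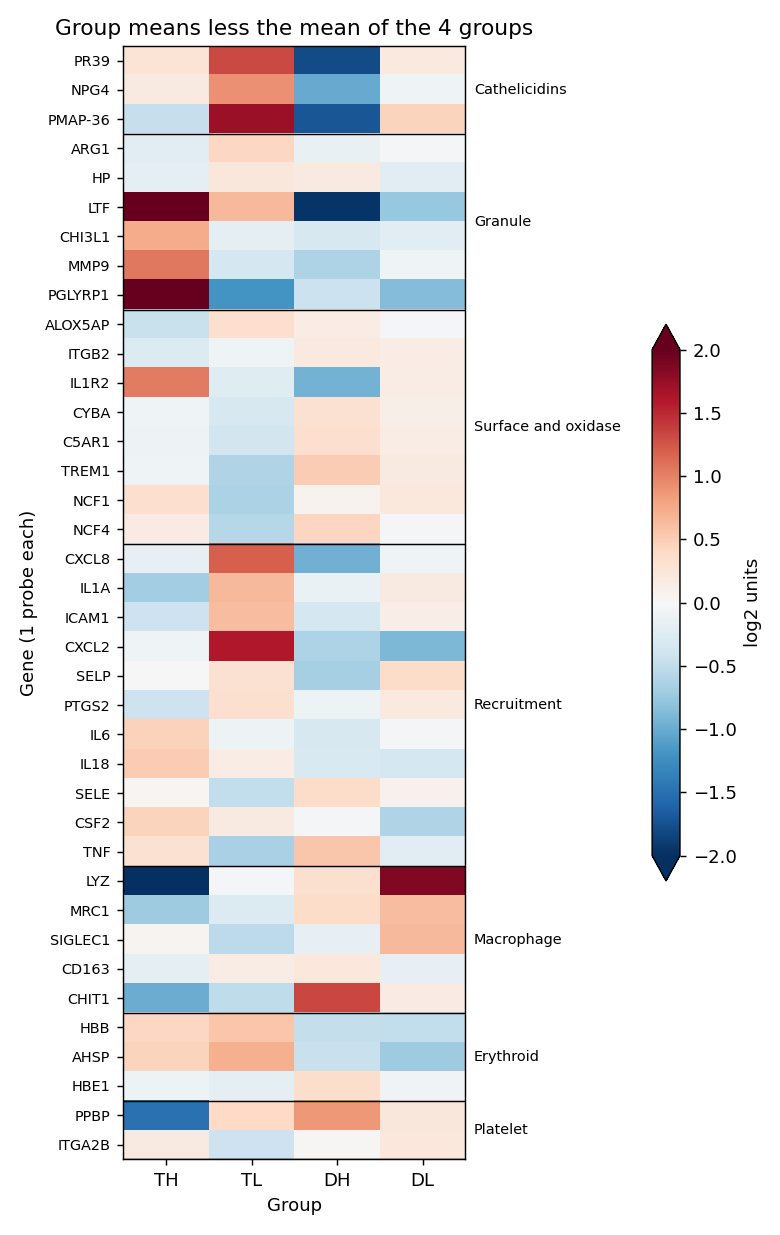
Group means less the mean of the 4 groups (log2 units, color scale from -2.0 to 2.0, beyond which the color stays the same) for the cathelicidins and for the listed genes of neutrophils and their recruitment and of macrophages, red cells and platelets, 1 probe per gene. PR39, NPG4, PMAP-36 and CXCL8 have their highest mean in TL and their lowest in DH, while LTF and PGLYRP1 are highest in TH.

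Markers of other cells moved as well. Among macrophage markers 5 of 9 were tested and 4 were lower in Tibetan pigs, LYZ at -2.18, CHIT1 at -1.50, MRC1 at -0.99 and SIGLEC1 at -0.48, where 8.92% of all probes were lower, and LYZ was lower at high altitude, at -1.83. Their mean log2 level was 13.32 to 13.33 in DL, 13.11 to 13.12 in DH, 12.43 to 12.50 in TL and 11.90 to 11.91 in TH, the breeds being apart in the direction opposite to PR39 and NPG4. Of 10 red cell markers 3 were tested, and AHSP, at 1.15, and HBB, at 0.97, both named only through the study's tables, were higher in Tibetan pigs, with 0 of 3 past the limma threshold for altitude and 0 at an unadjusted p below 0.05. The red cell list was at 11.04 to 11.09 in TL, 10.81 to 11.10 in TH, 10.50 to 10.51 in DH and 10.19 to 10.36 in DL. The platelet chemokine PPBP had a mean breed difference of -1.09 and a mean altitude difference of -0.63, with an interaction of -2.53 (limma adjusted p = 6.54e-06). It was lowest in TH, at 10.24, while TL minus DL was 0.17 and DH minus DL was 0.63. Its second probe was also lowest in TH, at 8.95, against 11.05 to 11.50 in the other groups. The other of 2 tested platelet genes, ITGA2B, did not pass. For SIGLEC1, TL minus DL was -1.17 but TH minus DH was 0.21. Its breed difference was -0.29 with signals scaled to the 75th percentile and did not pass. With the offset of 50, PPBP was at -1.82 for breed and -1.38 for altitude, neither past the threshold. Of 8 tested lymphocyte markers 3 were higher in Tibetan pigs and 6 at high altitude, where 8.94% of all probes were higher. Their mean log2 level was 11.65 to 11.67 in TH, 10.73 in DH, 10.31 to 10.32 in DL and 9.89 to 9.91 in TL. Of 10 skeletal muscle genes ACTA1, at 1.59, was higher and TNNI2, at -1.31, lower in Tibetan pigs while MYH2 and CKM were higher at high altitude. ACTA1 had its highest mean in TL, at 8.62, and its lowest in DH, at 6.26, as did the cathelicidins, and its interaction of 0.96 did not pass (adjusted p = 9.23e-04). Its second probe, at 1.49 for breed (adjusted p = 3.79e-04), did not pass. IVL, the 1 tested marker of squamous epithelium, did not pass for either and had no unadjusted p below 0.05. The part of these cells in the cathelicidin differences was not tested.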

How the data were processed

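Lung RNA of 8 pigs was measured on 8 Agilent 1-color arrays, 2 per group, and groups were taken from the sample labels. The authors extracted spot signals with Agilent Feature Extraction (version 9.1 per the submitters' processing notes, 10.7.3.1 per the file headers), and the deposited scanner files hold intensity values per spot. The authors also deposited log2 values, which the methods describe as RMA normalized. These served as an alternative. The median spot intensity was corrected with a normal-exponential model (offset 0, no local background), quantile normalized and taken as log2. Control spots and, on each array, 12 to 44 outlier spots were dropped, and spots of a probe were averaged.

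The 34406 of 43603 probes well above background on at least 1 array were fitted in limma 3.58.1 (R 4.3.3) with breed, altitude and their interaction, two-sided, with Benjamini-Hochberg adjustment over all of them, and passed at an FDR below 0.0001, the threshold of the methods. Arrays of a group held separate pigs. The number of arrays limits the precision. The steps were tested on simulated data.

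Names came from RefSeq accessions (2683 probes) or, failing these, from gene tables of the study that were used in part (2995 probes). Named genes were every member, up to 8 genes of each list with the largest breed or altitude difference among those that passed, at the brightest probe and with accession-named probes first, and the 5 genes most like PR39 by Pearson's r. AGER, TLR4, S100A10, S100A11, CEBPA, SPI1, IVL, ITGA2B, HP, ARG1 and PTGS2, the second probes of genes and the surfactant genes were named outside that rule after their values were seen. The members and lists were chosen with earlier results of these data known. For 1 gene of these lists results are not reported. No sequence of a probe, transcript or protein was used.

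Alternatives were the processed signals, quantile normalized or scaled to the 75th percentile, local background with an offset of 50, the deposited values, other filters on dim probes, no moderation, an intensity trend, an FDR below 0.05, slide or replicate number as a block, accession-named probes alone, and each array left out. The pairing of deposited values with an unmoderated test was chosen after seeing the data.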

Additional observations from a re-analysis of the deposited data

Results flagged for a closer look

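The altitude difference of PR39 differed between the breeds, with an interaction of 0.942 in log2 units (limma adjusted p = 9.45e-05), from -1.05 in Tibetan to -1.99 in Duroc pigs. The contrast between the 2 slides and that between native and moved pigs are both the same as this interaction, so that they cannot be told apart. NPG4, with 0.20, and PMAP-36, with -0.03, did not pass the test of the same difference. With signals scaled to the 75th percentile of each array, PR39 did not pass either, at 0.72 (adjusted p = 1.59e-04), and NPG4 passed, at 0.80 (adjusted p = 3.63e-05).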

How the results depend on the processing

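The direction of the breed and altitude differences of PR39 and NPG4 was the same under every alternative run, while calls near the FDR of 0.0001 were not. Of the 2 members, the number past the threshold was 1 for TH minus TL with signals scaled to the 75th percentile. For the interaction it was 0 with an offset of 50, with the deposited values (with or without moderation), with no filter on dim probes and with no moderation, and 2 at an FDR below 0.05. It stayed at 1 with signals scaled to the 75th percentile, but as NPG4 (0.80, adjusted p = 3.63e-05) in place of PR39 (0.72, adjusted p = 1.59e-04). For DH minus DL it was 1 with no filter and 0 with no moderation, and for TH minus DH 0 with no moderation. With 1 array left out, it ranged from 0 to 2 for breed and for TL minus DL, from 0 to 1 for TH minus TL, and was 0 throughout for altitude, interaction, DH minus DL and TH minus DH. Signs turned for PR39 in TH minus DL, at -0.0297 with quantile-normalized processed signals and -0.0266 with the deposited values in either model, and in the interaction, at -0.00073 with an offset of 50. For the PMAP-36 interaction they turned to 0.27 with quantile-normalized processed signals, 0.0308 at the 75th percentile, 0.26 with the deposited values in either model, 0.0115 without DL replicate 1 and 0.0794 without TL replicate 2, the range with 1 array left out being -0.148 to 0.0794. The cause of these changes was not tested. Scaling to the 75th percentile moved the median of all probes by 0.15 for the interaction, 0.13 for TH minus TL and -0.11 for TL minus DL. It moved the share of lower values among probes past the threshold from 45.8% to 57.8% for breed, from 48.6% to 35.9% for altitude and from 56.2% to 41.6% for the interaction.

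Same-numbered arrays deviated from their group means with r of -0.07 to 0.15, the highest being that of TH with TL. With 2 arrays per group, these values cannot settle whether same-numbered arrays share anything beyond a label. With the replicate number as a block, 2 members passed for breed, 1 for altitude, 2 for TL minus DL, and 0 for the interaction, TH minus TL, DH minus DL and TH minus DH, among 2088, 642, 5549, 3184, 5404, 0 and 81 probes in all. With all 8 arrays, over settings other than the FDR, the number past the threshold ranged from 1682 to 11430 for breed (6705 as reported), from 642 to 10677 for altitude (5989), from 2266 to 11142 for the interaction (7256), from 4214 to 14498 for TH minus TL (10162), from 0 to 5231 for DH minus DL (1057), from 81 to 4801 for TH minus DH (1520) and from 4356 to 15159 for TL minus DL (10280), and at an FDR below 0.05 it was 17870 to 25584. With 1 array left out it was 2 to 1854 for breed, 1463 to 2836 for the interaction, 2422 to 5865 for TH minus TL, 2726 to 6697 for TL minus DL, 0 to 131 for TH minus DH, and 0 for altitude and DH minus DL. Slide as a block in place of the interaction is the same fit. Over all values compared, 965 kept their call, 544 lost it, 12 gained one and 10 turned sign. This tally was partly fixed in advance. The FDR below 0.05 and the accession-named probes alone reused the reported fit, so that no call could be lost there. Genes other than the cathelicidins entered only with effects that had passed, and these could not gain a call. Raw DH signals were low for PR39, at 117 and 118.5, and PMAP-36, at 108 and 107.5.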
